A study of Caenorhabditis elegans with 6 samples.

Results

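The vitellogenin family of Caenorhabditis elegans comprises vit-1 to vit-6, and all 6 genes were found by name among the 45132 genes listed for each library. The animals were wild-type N2 worms, harvested as adults at 5 days of age. In the control group, larvae had been fed bacteria with the L4440 vector alone; in the vit-5 RNAi group, larvae had been fed bacteria carrying the vit-5 trigger. Both groups were moved to OP50 bacteria as young adults and kept at 20°C. Each group had 3 libraries of whole-animal RNA, and the labels do not say whether these came from separate cultures, so p-values measure only the spread between these libraries. Values are FPKM, a fragment number corrected for transcript length and library size, and the depth of the libraries is known only roughly, at 17000000 to 21100000 fragments.

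Vitellogenins are large lipid-carrying proteins made in the adult intestine, secreted into the body cavity and taken up by growing oocytes as yolk. In the worm, vit-3, vit-4 and vit-5 encode the yolk protein YP170A, vit-1 and vit-2 encode YP170B, and the product of vit-6 is cut into YP115 and YP88. RNA interference degrades transcripts that match the double-stranded trigger, so close copies of a target can be silenced with it. The comparison asked how the family's transcript pool was divided among its members in control worms and what was left of each under vit-5 RNAi. It also asked whether the untargeted copies, vit-1, vit-2 and vit-6, made up for the silenced ones. Whether the trigger matches those untargeted copies in sequence was not examined.

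The gene models followed the protein classes. In the WBcel235 annotation, vit-5 (X, 3403471 to 3408603, plus strand), vit-4 (X, 3558769 to 3563965, minus strand) and vit-3 (X, 3567355 to 3572549, minus strand) each had 6 exons. Exons 2, 3, 4 and 5 were of equal length in all 3 genes, at 285, 3038, 229 and 136 bases, and all 3 coded for 1603 residues. The YP170B genes vit-2 (X, 5101032 to 5106169) and vit-1 (X, 7727889 to 7733168), both on the plus strand, had 5 exons. They shared an exon 2 of 285 bases and an exon 4 of 247 bases, and coded for 1613 and 1616 residues. The vit-6 gene (IV, 8261157 to 8266459, plus strand) also had 5 exons, but none of the 285-base length shared by the other members, and an exon 3 of 3948 bases. Only 3389 bases separated vit-4 from vit-3, whereas vit-5 ended 150165 bases before vit-4 began.

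**Figure D1:**
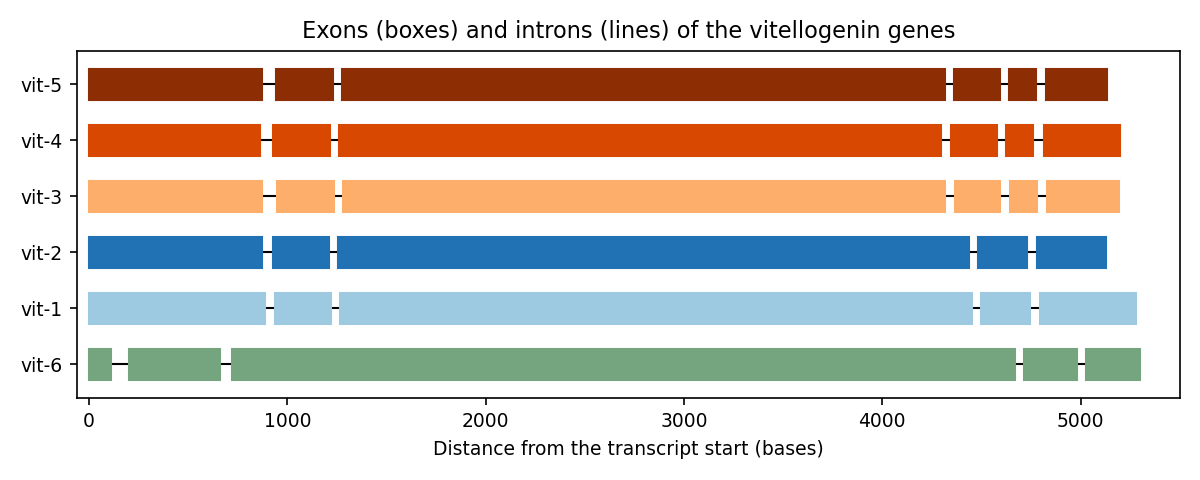
Exon maps of the 6 vitellogenin genes drawn to scale, with the distance from the transcript start in bases on the horizontal axis, boxes for exons and lines for introns; for vit-6, 1 of 2 annotated transcripts is drawn. The YP170A genes vit-5, vit-4 and vit-3 share a 6-exon layout with an exon 3 of 3038 bases, while vit-2, vit-1 and vit-6 have 5 exons.

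In control worms the order of the 6 genes was the same in every library, with vit-2 highest, followed by vit-6, vit-5, vit-4, vit-3 and vit-1. The 3 control libraries held 3789, 2020.4 and 2603 FPKM of vit-2 and 3537, 2007 and 2567 FPKM of vit-6. These neighbours in the order differed by less than the spread between libraries, although vit-2 was the higher of the pair each time. For vit-5 the values were 2335, 1396 and 1573 FPKM. For vit-4 they were 1260.1, 656 and 567 FPKM, and for vit-3 they were 1003, 559 and 510.1 FPKM, so the ranges of these last 2 genes overlapped. The lowest member, vit-1, had 231, 95.1 and 74.1 FPKM, below every value of the other members. Control replicate 1 was the highest control library for each of the 6 genes.

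Expressed as a share of the summed vitellogenin FPKM of the same library, the control pool was divided almost evenly between the 3 classes. YP170A transcripts made up 36.7% ± 2.77, YP170B transcripts 32.8% ± 1.27 and vit-6 30.5% ± 1.80 (SD, n = 3 each). Among single genes, vit-2 supplied 31.4% ± 1.495, vit-5 19.95% ± 0.758, vit-4 9.10% ± 1.69, vit-3 7.67% ± 1.05 and vit-1 1.42% ± 0.481 (SD, n = 3 each). The summed FPKM ranged 1.81-fold between control libraries, while the vit-5 share stayed between 19.2% and 20.7%. Because FPKM are per length, these are shares of transcripts rather than of fragments.

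Under vit-5 RNAi all 3 YP170A transcripts were lower than in any control library. The vit-5 RNAi libraries held 116, 51.6 and 22.8 FPKM of vit-5, which left 3.59% of the control mean. For vit-4 the values were 45.8, 21.8 and 3.997 FPKM (2.88% of the control mean), and for vit-3 they were 62.5, 28.8 and 5.66 FPKM (4.68%). For none of the 3 genes did the groups overlap, and replicate 3 was lowest and replicate 1 highest each time. In a limma fit over all 12908 genes that reached 1 FPKM in 3 or more libraries, on log2(FPKM + 1), vit-5 differed by -5.03 (SE 0.50). For vit-4 the difference was -5.48 (SE 0.72), and that of vit-3 was -4.83 (SE 0.71). Only 3 tested genes had a lower fold change than vit-3, 2 of them vit-4 and vit-5.

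Adjusted over all tested genes by the Benjamini-Hochberg method, the limma p was 0.0552 for vit-5 and 0.122 for vit-4 and vit-3, so none passed 0.05, as was true of every tested gene (0% called). At an unadjusted limma p under 0.05, 3 of the 6 members were lower, against 0.906% of all tested genes, and 0 members were higher, against 26.2%. The same 3 members had all their vit-5 RNAi values below all control values, which held for 3.15% of tested genes. Leaving out replicate 1 or 3 of the vit-5 RNAi group made vit-3, vit-4 and vit-5 pass. Their limma adjusted p-values were 0.0158, 0.0119 and 0.000558 without replicate 1. So did leaving out the library richest in larval cuticle transcripts of each group, an alternative chosen after seeing the data. Among protein-coding genes alone vit-5 passed as well, at a limma adjusted p of 0.0483. None of these 3 genes passed when any other single library was left out, and without control replicate 2 the limma adjusted p was 0.431 for each. With quantile scaling it was 0.403 for vit-3 and vit-4 and 0.238 for vit-5.

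**Figure D2:**
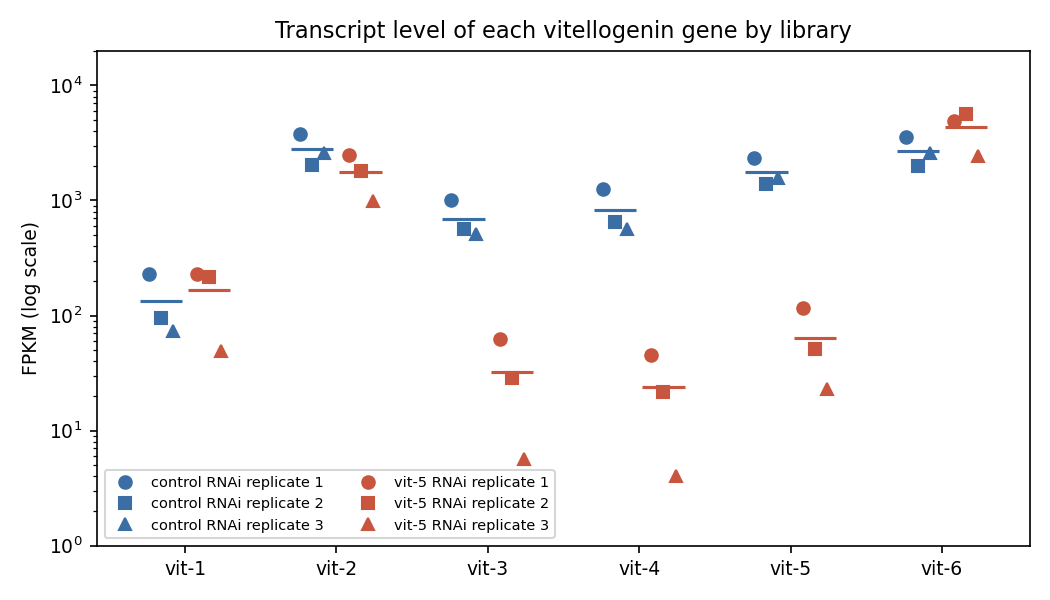
FPKM on a log axis for each of the 6 vitellogenin genes, with 1 point per library (blue for control RNAi, red for vit-5 RNAi, marker shape for the replicate number) and a bar at each group mean. The red points lie, for the YP170A genes vit-3, vit-4 and vit-5, at 3.997 to 116 FPKM, below all blue points, while those for vit-1, vit-2 and vit-6 overlap the control range.

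The 3 untargeted genes, whose sequence match to the vit-5 trigger was not examined, differed in direction. The vit-5 RNAi libraries held 2476, 1792 and 997 FPKM of vit-2, with replicate 1 inside the control range and replicates 2 and 3 below it. For vit-6 they held 4925, 5595 and 2433 FPKM, with replicates 1 and 2 above all controls and replicate 3 inside the control range. For vit-1 they held 229, 218 and 49.2 FPKM, a range that enclosed 2 of the 3 control values. The log2 differences were -0.72 (SE 0.34) for vit-2, 0.63 (SE 0.33) for vit-6 and 0.20 (SE 0.62) for vit-1, with limma adjusted p-values of 0.213, 0.25 and 0.857. These lie beside a median of 0.34 over all tested genes, so on the deposited scale most genes were shifted upward, and in 30.8% of tested genes each value under vit-5 RNAi exceeded each control value. Median-of-ratios scaling, which brings the median of all genes to 0.06, gave -1.05 for vit-2, 0.30 for vit-6 and -0.13 for vit-1, and upper-quartile scaling likewise gave a negative value for vit-1 (-0.083). The vit-1 difference was also negative when control replicate 3 (-0.13) was left out, or replicate 1 (-0.18) or 2 (-0.14) of the vit-5 RNAi group.

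Shares within a library do not depend on that scaling, and vit-6 held the largest of the 6 in each vit-5 RNAi library. Its share was 29.1%, 29.8% and 32.5% in control libraries and 62.7%, 72.6% and 69.3% under vit-5 RNAi, a difference of 37.7 percentage points with no overlap. The YP170A share was 37.8%, 38.8% and 33.6% in controls and 2.85%, 1.33% and 0.925% under vit-5 RNAi. The 2 YP170B genes together made up 30.1% ± 4.19 (SD, n = 3) beside the control value of 32.8% ± 1.27, with overlapping ranges. A smaller YP170A share raises the other shares by arithmetic alone, so the 3 untargeted genes were also set against their own sum. Of that sum, vit-6 made up 46.8%, 48.7% and 48.9% in controls and 64.5%, 73.6% and 69.9% under vit-5 RNAi, a difference of 21.2 percentage points without overlap. For vit-2 the parts were 50.1%, 49.0% and 49.6% in controls and 32.4%, 23.6% and 28.7% under vit-5 RNAi. That was a difference of -21.4 percentage points, also without overlap. Since vit-1 made up only 1.41% to 3.06% of that sum, the vit-2 part is nearly the complement of the vit-6 part. For each single-gene share of vit-3, vit-4, vit-5 and vit-6 of the whole pool an exact 2-sided permutation test gave 0.1, its lower limit with 3 libraries against 3, and for vit-1 and vit-2 the exact p was 0.3.

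**Figure D3:**
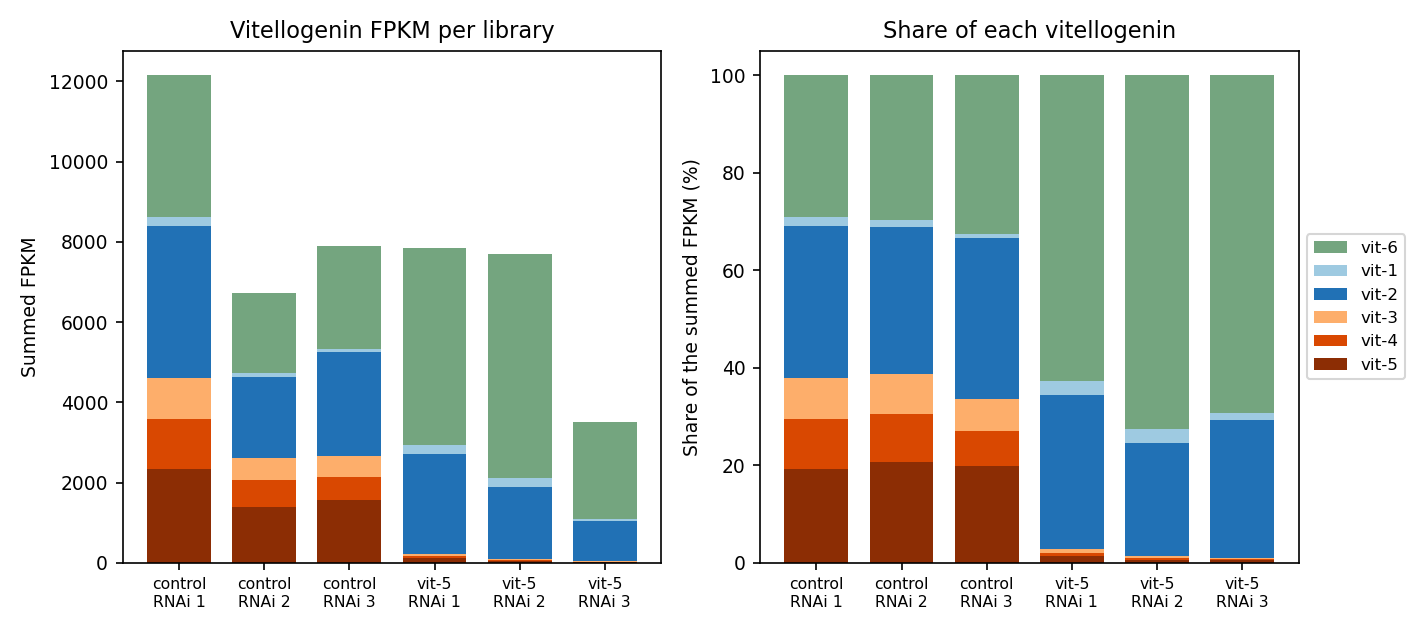
Stacked bars for each library, with the summed FPKM of the 6 genes on the left and each gene's percentage of that sum on the right, both from 0. In the right panel vit-6 takes 29.1% to 32.5% of the control bars and 62.7% to 72.6% of the vit-5 RNAi bars, while the left panel shows sums from 6733 to 12156 FPKM in the control libraries against 3512 to 7854 FPKM under vit-5 RNAi.

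Ratios of 2 members in the same library separated the groups for 1 pair of untargeted genes, vit-2 and vit-6. In controls vit-2 and vit-6 were close to parity, with ratios of vit-2 to vit-6 of 1.07, 1.01 and 1.01. Under vit-5 RNAi the ratios were 0.503, 0.32 and 0.41. The 2 groups did not overlap, and the log2 ratio differed by -1.35 (exact 2-sided permutation p of 0.1, the smallest possible), with a range of -1.51 to -1.18 when each library was left out. A ratio does not show which of the 2 genes moved, and this one largely restates their parts of the untargeted sum. As background, 7.79% of the other 12907 tested genes had a ratio to vit-6 that lay below all controls in all vit-5 RNAi libraries, among them vit-2, vit-3, vit-4 and vit-5, and 1.12% had one above.

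The position of vit-1 was less clear. Its ratio to vit-6 was 0.0653, 0.0474 and 0.0289 in controls and 0.0465, 0.039 and 0.0202 under vit-5 RNAi, and the ranges overlapped (exact permutation p of 0.4). Its ratio to vit-2, the other YP170B gene, was 0.061, 0.0471 and 0.0285 in controls and 0.0926, 0.122 and 0.0493 under vit-5 RNAi, again with overlap (exact permutation p of 0.2). It was the most variable untargeted member, with a 3.12-fold range between control libraries and a 4.66-fold range between vit-5 RNAi libraries. The corresponding ranges were 1.88-fold and 2.48-fold for vit-2 and 1.76-fold and 2.3-fold for vit-6.

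Inside the YP170A class, the groups overlapped in the part taken by vit-5 but not in that taken by vit-4. The targeted gene vit-5 supplied 50.8%, 53.5% and 59.3% of YP170A transcripts in controls and 51.7%, 50.5% and 70.3% under vit-5 RNAi. The part of vit-4 was 27.4%, 25.1% and 21.4% in controls and 20.4%, 21.3% and 12.3% under vit-5 RNAi, so the groups separated by a narrow margin. The ratio of vit-3 to vit-4 was 0.796, 0.853 and 0.899 in controls and 1.36, 1.32 and 1.42 under vit-5 RNAi. That log2 ratio differed by 0.65 without overlap (exact permutation p of 0.1, the smallest possible). The sequences of these 3 genes were not compared here, but they shared most exon lengths. Reads from close copies can be shared or assigned to the wrong copy, and how they were treated is not given. This makes the separate values of the 3 genes, and the vit-3 to vit-4 ratio above all, uncertain. The same limit applies to the ratio of vit-1 to vit-2. In all, 15 pairs of members were compared in this way and 11 did not overlap between groups. Of these 11, 9 set a YP170A gene against an untargeted one and so restate the lower YP170A values. The share of all gene pairs without overlap was not computed, so the count of 11 is not read as a result about the members.

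**Figure D4:**
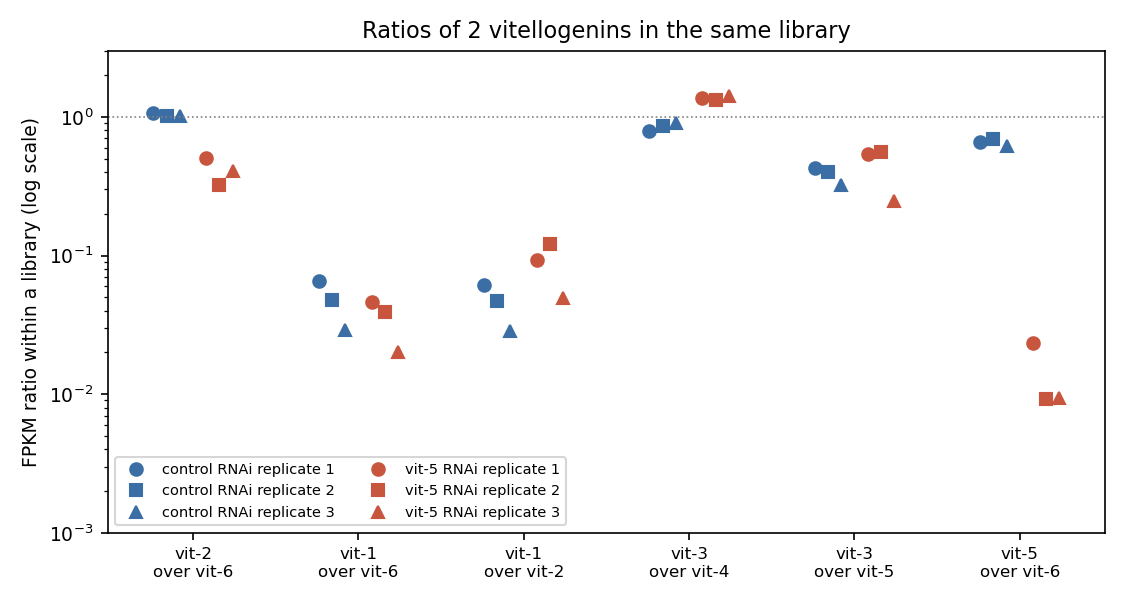
FPKM ratios of 6 pairs of vitellogenin genes within each library on a log axis, 1 point per library, with a dotted line at equality. The ratio of vit-2 to vit-6 is 1.01 to 1.07 in controls and 0.32 to 0.503 under vit-5 RNAi, and that of vit-3 to vit-4 lies below the line in controls and above it under vit-5 RNAi, while the ratios of vit-1 to vit-2 and of vit-1 to vit-6 overlap between groups.

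As a result the order of the members under vit-5 RNAi was again the same in all 3 libraries, but different from the controls. It ran from vit-6 through vit-2, vit-1, vit-5 and vit-3 to vit-4. Against the control order, vit-2 and vit-6 were reversed, as were vit-3 and vit-4. The place of vit-1 was 3rd instead of 6th, above the YP170A genes. Among all listed genes, vit-6 ranked 68th, 125th and 106th by FPKM in controls and 19th, 21st and 100th under vit-5 RNAi. The target vit-5 ranked 110th, 162nd and 153rd in controls and 1412th, 2728th and 5179th under vit-5 RNAi.

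Whether the untargeted copies made up for the silenced ones was examined on summed FPKM. The mean YP170A sum was lower by 3167 FPKM under vit-5 RNAi. Against that deficit, the vit-6 mean was higher by 1614 FPKM (50.97% of the deficit) and the vit-1 mean by 32.1 FPKM (1.01%), while the vit-2 mean differed by -1049 FPKM (-33.1%). The net was 597 FPKM, or 18.8% of the deficit. It was not stable across libraries. The 3 untargeted genes summed to 7557, 4123 and 5243 FPKM in controls and 7629.6, 7605 and 3479.6 FPKM under vit-5 RNAi, so that the vit-5 RNAi libraries, each set against the control means, gave 64.9%, 61.7% and -66.4%. The net turned negative with median-of-ratios (-18.6%) or upper-quartile scaling (-13.7%) and when control replicate 2 was left out (-4.63%). The same held on leaving out replicate 1 (-3.07%) or replicate 2 (-2.74%) of the vit-5 RNAi group. Leaving out control replicate 1 gave 61.9%, and leaving out the vit-5 RNAi group's replicate 3 gave 63.3%. No alternative that was run brought the net to the size of the deficit, and these libraries do not fix its sign. The sum over all 6 genes was 12156, 6733 and 7893 FPKM in the control libraries against 7854, 7707 and 3512 FPKM under vit-5 RNAi, and these ranges overlapped.

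The total varied with other features of the libraries. Vitellogenin sums were highest in replicate 1 of each group and lowest in control replicate 2 and vit-5 RNAi replicate 3. Across both groups the orders differed, since the sums of control replicate 3 lay above those of replicates 1 and 2 under vit-5 RNAi for the vitellogenins and below them for the oocyte markers. Of 10 larval and molting cuticle genes, none at 0, the summed level was 194, 685 and 769 FPKM in the control libraries against 244, 333 and 1086 FPKM under vit-5 RNAi. The adult cuticle collagen col-19 had 170, 171 and 80.2 FPKM in controls and 140, 162 and 30.1 FPKM under vit-5 RNAi. The 9 oocyte markers, none at 0, summed to 3544, 2615 and 2753 FPKM in controls and 3471, 3058 and 1960.2 FPKM under vit-5 RNAi, and within each group their library order was that of the vitellogenin sums. Within each group the 20 ribosomal RNA genes had the opposite order, with 5240, 24241 and 8331 FPKM in the control libraries against 2387, 4109 and 31520.1 FPKM under vit-5 RNAi. The 11 intestine markers, all above 0, summed to 3469 to 3991 FPKM in the control libraries against 3298 to 4242 FPKM under vit-5 RNAi. For each of these sums the groups overlapped. Most of the intestine sum was asp-1, which lay between 2278 and 3035 FPKM in every library. Of the other intestine markers, ges-1, pept-1, nhx-2 and pho-1 lay above all controls, and the rest overlapped. These 4 were higher at an unadjusted limma p under 0.05 and 0 markers were lower, against 26.2% and 0.906% of all tested genes. Median-of-ratios scaling left 3 higher and 0 lower, against 10.5% and 10.7%. None passed the adjusted limma threshold. In whole animals, fewer cells of a type and less RNA per cell cannot be told apart, and the part of these features in the vitellogenin values was not tested.

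**Figure D5:**
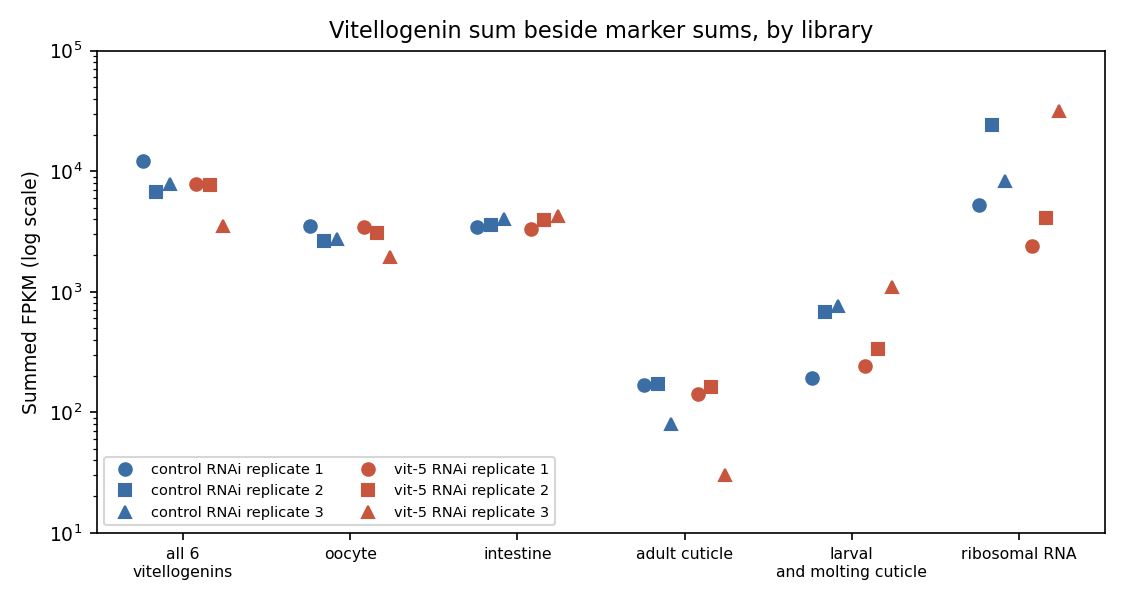
Summed FPKM on a log axis for the 6 vitellogenins and for marker lists, 1 point per library, with col-19 as the adult cuticle marker. In both groups replicate 1 has the highest vitellogenin sum and the lowest larval and ribosomal RNA sums, and vit-5 RNAi replicate 3 has the lowest vitellogenin sum (3512 FPKM) and the highest ribosomal RNA sum.

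Other genes of the yolk pathway were taken from a list of 16, of which 15 were tested. None passed the adjusted limma threshold. At an unadjusted limma p under 0.05, 8 were higher and 0 lower, against 26.2% and 0.906% of all tested genes, and the median log2 difference was 0.49 beside 0.34 over all tested genes. After median-of-ratios scaling 1 was higher and 1 lower, against 10.5% and 10.7% of all tested genes. After upper-quartile scaling 4 were higher and 0 lower, against 12.4% and 8.68%. The oocyte yolk receptor gene rme-2 had 337, 249 and 268 FPKM in controls and 293, 292 and 179.7 FPKM under vit-5 RNAi, with overlap. Among factors that act on vitellogenin transcription in the intestine, ceh-60 had 3.16, 2.10 and 1.56 FPKM in controls and 7.37, 4.76 and 3.41 FPKM under vit-5 RNAi, without overlap. Its partner unc-62 had 20.5, 15.5 and 15.1 FPKM in controls and 19.5, 22.8 and 20.3 FPKM under vit-5 RNAi, with overlap. The zinc-finger factor pqm-1 had 30.4, 30.8 and 40.4 FPKM in controls and 50.8, 54.4 and 66.4 FPKM under vit-5 RNAi, without overlap. The gut GATA factor elt-2 had 11.2, 8.75 and 7.67 FPKM in controls and 15.1, 13.3 and 12.2 FPKM under vit-5 RNAi, also without overlap. The gene dsc-4 encodes the lipid transfer protein that loads yolk particles. It had 17.5, 12.95 and 13.95 FPKM in controls and 19.9, 21.7 and 21.4 FPKM under vit-5 RNAi, without overlap. Of the other listed genes, daf-2, rme-8, sgk-1, elt-7 and daf-16 also lay above all controls, while rab-35, lin-29, rict-1 and rme-1 overlapped. On the deposited scale, 30.8% of all tested genes had every vit-5 RNAi value above the controls. The male repressor of vitellogenins mab-3 was not tested, at 0.055 to 0.0599 FPKM in controls and listed at 0 under vit-5 RNAi.

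Of 10 protein-coding genes with values that neighbour or overlap the vitellogenins, 6 passed the filter on low values. Among these 6, 0 had groups without overlap, against 30.8% of all tested genes with every vit-5 RNAi value above the controls and 3.15% with every one below. On the far side of vit-4, 985 bases away, the G-protein regulator gene rgs-7 had 15.2, 8.88 and 9.48 FPKM in controls and 14.2, 10.6 and 7.88 FPKM under vit-5 RNAi. Only 70 bases above vit-5, the actin-regulator gene unc-78 had 15.6, 14.6 and 18.2 FPKM in controls and 18.0, 13.9 and 24.6 FPKM under vit-5 RNAi.

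Across the 6 libraries, likeness of profile was measured as the root mean square difference of centred log2(FPKM + 1) among 7356 genes with a mean of at least 10 FPKM. The nearest profiles to vit-5 were those of vit-3 (0.37) and vit-4 (0.43), and the third nearest gene, Y48G8AL.17, lay at 1.77. The nearest to vit-3 were vit-4 (0.33) and vit-5 (0.37), and the third was T04C12.30 at 1.56. The nearest to vit-4 were vit-3 and vit-5, and the third was Y48G8AL.17 at 1.74. These distances span both groups, so the fall shared by these 3 members itself brings their profiles together. Under vit-5 RNAi, Y48G8AL.17 was at 0.0001 FPKM in replicates 2 and 3, and T04C12.30 in replicate 3. For the untargeted members no vitellogenin was among the 3 nearest. They were F15B10.3 (0.21), pes-2.2 (0.25) and Y69H2.3 (0.26) for vit-2. They were spig-12 (0.13), C50F2.2 (0.14) and T15B7.1 (0.15) for vit-6. For vit-1 they were D1054.18 (0.24), the cuticle collagen gene dpy-17 (0.28) and F22H10.6 (0.28). The distance between vit-1 and vit-6 was 0.54, that between vit-1 and vit-2 was 0.68, and that between vit-2 and vit-6 was 0.7.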

How the data were processed

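Each file holds FPKM of 1 library as the authors deposited them, per the file headers. Per the submitters' processing notes the build was WBcel235 and the tools, listed without roles, were HTSeq 0.6.1, DESeq 1.18.0, Bowtie2 2.2.3, TopHat2 2.0.12 and an unversioned TopHat. How FPKM were computed, and how reads matching several copies were treated, the sources used here do not give. The lowest values are mostly written as 0.0001 and entered the fits as deposited. The spacing of low values gave rough depths, but 28.5% to 30.6% of them fell within 0.1 of a whole number of fragments (20% by chance), so counts were not rebuilt and no counting interval is given. Of 45132 gene IDs, 45010 matched the RefSeq table of WBcel235, which gave symbols and coordinates; exons came from the Ensembl annotation of that build.

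Values were transformed as log2(FPKM + 1), which understates differences of low genes, and fitted with limma 3.58.1 (R 4.3.3) with the group as its only term and a mean-variance trend; the procedure was tested on simulated data. Shares, ratios and sums were computed within libraries in Python 3.11.15 and compared by exact 2-sided permutation where a p is given; sums over members were not tested. Differences are vit-5 RNAi minus control. Members and lists were chosen with earlier results of these data known. Genes named beside the members are the nearest protein-coding genes, the 3 most alike profiles per member and the yolk pathway list. Alternatives were another pseudocount, no filter on low values, other scalings, protein-coding genes only, FPKM times transcript length, vit-1 left out of the sum, a replicate block and leaving out libraries.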

Additional observations from a re-analysis of the deposited data

How the results depend on the processing

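The number of genes past the adjusted limma threshold was 0 on the deposited values and 2 with protein-coding genes only (vit-5 and srlf-7). It was 0 to 5 when each library was left out, and 5 without the library highest in larval cuticle genes of each group, an alternative chosen after seeing the data. With the replicate number as a block it was 3806, vit-2, vit-3, vit-4 and vit-5 being among them (limma adjusted p of 0.032, 0.00231, 0.000754 and 0.000435). Deviations of same-numbered libraries correlated at 0.753, 0.0339 and 0.681, and control replicate 2 correlated better with vit-5 RNAi replicate 3 (0.348), so the numbers were not taken to pair the libraries. The 21 differences in shares and ratios kept their direction under each alternative run. Among these, the replicate block leaves a difference of means unchanged by construction and could not reverse one. With the replicate block, the share of vit-6 thus differed by the same 37.7 percentage points (exact sign-flip p of 0.25, the smallest possible). Per fragment instead of per length, that share differed by 37.6 percentage points. The log2 difference of vit-1 reversed with median-of-ratios (-0.13) and upper-quartile scaling (-0.083) and ranged from -0.18 to 0.92 when each library was left out. The net of the untargeted genes, 18.8% of the YP170A deficit, reversed with median-of-ratios (-18.6%) and upper-quartile scaling (-13.7%), was 37.1% with quantile scaling, and ranged from -4.63% to 63.3% when each library was left out; the cause was not tested beyond the change in scale or libraries. Strandedness is not stated. Vitellogenin protein was not measured.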
